A study of Mus musculus with 12 samples.

Results

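MAX chromatin immunoprecipitation and sequencing in RAW264.7 cells listed 6023 regions that lay at the ends of protein-coding genes and carried a MAX peak after the BET inhibitor I-BET alone. RAW264.7 is a mouse monocyte and macrophage line that can form osteoclasts when given RANKL. The regions were obtained by merging the MAX peaks of the 4 treatments, keeping merged regions that held peaks of the I-BET list and of no other list, and then keeping those within 1 kb of either annotated end of a protein-coding gene in the GRCm38.p6 (mm10) gene table. They made up 16.2% of the 37124 merged MAX regions. Of all merged MAX regions 66.9% held an I-BET peak only, of these 24.3% lay at a gene end, and of the merged regions at gene ends 49.7% were I-BET-only. The regions were thus chosen by the presence of a peak in the I-BET list and its absence from the other 3, and these shares are given as a description of that choice.

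The study immunoprecipitated MYC and MAX from cells that were untreated, given RANKL at 50 ng/ml, given I-BET at 500 nM, or given both agents at these doses, with 4 h of treatment. Each antibody and treatment had 1 deposited peak list, so no difference between treatments has a replicate check and no p-value is given. The I-BET MAX list stood apart from the other MAX lists in length. It held 36785 peaks, against 8839 in untreated cells, 10889 with RANKL and 6307 with RANKL and I-BET together. Sequencing depth is unknown from the peak lists, and the effect of I-BET cannot be told apart from a property of that library. A gene without a listed peak is a gene at which no peak passed the authors' calling, not a gene shown to lack MAX.

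MAX is a basic helix-loop-helix leucine zipper protein and the shared dimer partner of the MYC proteins, of the MXD and MNT repressors and of MGA. Its dimers bind the E-box CACGTG and related hexamers, mostly in open chromatin at CpG-rich promoters. BET proteins read acetylated histones and bring the elongation kinase P-TEFb to promoters, and I-BET compounds displace them from chromatin. RANKL, the ligand of RANK, drives macrophage-lineage cells towards bone-resorbing osteoclasts.

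The promoter sequences of 5 genes with such a region show the kinds of DNA involved. Supt16 (a subunit of the histone chaperone FACT) and Natd1 carried such a region over a whole promoter stretch with the MAX E-box CACGTG. Their regions ranked 4523 and 5072 of the I-BET list, and the region of Zfp758, also with CACGTG, ranked higher at 3104. Kctd6 carried a region of rank 2397 over a stretch without CACGTG. Klf2 (a zinc-finger transcription factor of myeloid and endothelial cells) and Mavs (the mitochondrial adaptor of RNA sensing) are members of the gene lists described below and had no CACGTG there. Each line gives the 250 bases before the annotated start from RefSeq (GRCm38.p6), 5′ to 3′ on the gene's strand, in lower case with CACGTG in capitals.
Supt16 (chr14:52197240-52197489, minus strand): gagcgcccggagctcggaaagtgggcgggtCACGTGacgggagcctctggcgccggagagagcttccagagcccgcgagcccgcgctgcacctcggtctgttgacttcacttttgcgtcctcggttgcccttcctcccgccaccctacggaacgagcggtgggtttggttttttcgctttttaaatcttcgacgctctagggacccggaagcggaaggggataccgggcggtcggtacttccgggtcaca
Natd1 (chr11:60913793-60914042, minus strand): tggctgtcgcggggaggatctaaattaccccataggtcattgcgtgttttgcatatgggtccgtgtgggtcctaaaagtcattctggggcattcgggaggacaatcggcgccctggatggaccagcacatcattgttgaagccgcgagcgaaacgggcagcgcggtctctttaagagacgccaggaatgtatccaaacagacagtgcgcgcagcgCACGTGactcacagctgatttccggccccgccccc
Kctd6 (chr14:8213831-8214080, plus strand): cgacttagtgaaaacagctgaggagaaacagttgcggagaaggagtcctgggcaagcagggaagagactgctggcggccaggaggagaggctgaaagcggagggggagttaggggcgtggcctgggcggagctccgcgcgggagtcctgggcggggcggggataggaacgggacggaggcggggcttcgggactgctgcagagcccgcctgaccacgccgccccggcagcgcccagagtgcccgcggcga
Klf2 (chr8:72318812-72319061, plus strand): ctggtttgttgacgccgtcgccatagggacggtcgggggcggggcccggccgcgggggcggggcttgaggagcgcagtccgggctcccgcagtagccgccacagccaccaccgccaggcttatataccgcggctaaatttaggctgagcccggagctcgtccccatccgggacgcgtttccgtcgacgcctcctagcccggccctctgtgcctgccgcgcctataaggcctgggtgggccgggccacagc
Mavs (chr2:131233813-131234062, plus strand): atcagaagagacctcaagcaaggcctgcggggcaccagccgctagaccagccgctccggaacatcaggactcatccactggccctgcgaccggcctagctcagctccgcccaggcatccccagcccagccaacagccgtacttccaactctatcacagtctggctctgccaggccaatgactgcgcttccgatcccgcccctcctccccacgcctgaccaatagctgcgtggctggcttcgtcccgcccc

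Further E-boxes under I-BET-only regions are shown with 10 bases on each side, to let the flanks be compared. Their regions ranked between 3104 (Zfp758) and 7169 (Sec22c) of the I-BET list.
Zfp758 (chr17:22361414-22361439, plus strand): cggttccggtCACGTGacagcgctaa
Ercc8 (chr13:108158491-108158516, plus strand): ggtccgtgccCACGTGctccctcacc
Rlf (chr4:121215097-121215122, minus strand): caggcggagtCACGTGgtttggttgc
Ceacam1 (chr7:25477648-25477673, minus strand): acccccagccCACGTGgatctgggag
Nudt16l1 (chr16:4939047-4939072, plus strand): gggctttatgCACGTGgaagcacgag
Fgfrl1 (chr5:108694101-108694126, plus strand): gcctggcgggCACGTGtgcggattgg
Sec22c (chr9:121705188-121705213, minus strand): gtgagactcgCACGTGggcctgggga
The Zfp758 site also lies before the start of Zfp944, which is transcribed in the opposite direction from the same 646 bp region. Measured from the annotated start, the E-boxes lay 220 bases upstream in Supt16, 35 in Natd1, 39 in Zfp758, 237 in Ercc8, 28 in Rlf, 38 in Ceacam1, 54 in Nudt16l1, 118 in Fgfrl1 and 174 in Sec22c. Sites near the start and sites far from it therefore both occurred.

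The highest-scored I-BET-only regions at gene ends lay at genes of varied function. The score is the authors' own value for each peak, and it is used here only to rank peaks within the I-BET list, where rank 1 is the highest. The region of Emc7, a subunit of the endoplasmic reticulum membrane protein complex, was the highest-ranked at 2033 of 36785 (chr2:112454699-112455449). It was followed by Dstyk, a kinase, at rank 2121, Nacc1, a BTB-domain transcriptional regulator, at 2299, Smg6, the endonuclease of nonsense-mediated decay, at 2383, and Kctd6 at 2397. The 20 highest-ranked regions also included those at Cnot11 (a subunit of the CCR4-NOT deadenylase, rank 2682), Nxf1 (the mRNA export receptor, 2714), Rbm8a (an exon junction complex protein, 3226), Copg2 (a COPI coat subunit, 3283) and Mtfmt (the mitochondrial methionyl-tRNA formyltransferase, 3292). At Emc7, the untreated, RANKL and combined-treatment lists held no MAX peak within 37370 bp. At Nacc1 the nearest such peak was 980 bp away and at Elmod3 and Retsat, which share a region of rank 2543, it was 168 bp away.

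Against the other I-BET regions, these regions held intermediate ranks and widths. Their median rank was 19057, with quartiles of 12461 and 27634, and none stood among the 2000 highest-ranked I-BET peaks. Gene-end regions shared with another treatment had a median rank of 4444, and for I-BET-only regions away from gene ends it was 25021.5. The median width was 547 bp (quartiles 356 and 803.5), against 1066 bp for shared gene-end regions and 357 bp for I-BET-only regions elsewhere. The whole I-BET list was divided into 10 bins of equal size by rank. Of the gene-end regions in each bin, I-BET-only ones made up 1.27% in bin 1 (the highest ranks), 43.2% in bin 3 and 87.9% in bin 5. Ranks and widths come from the list that chose the regions, so these values are a description.

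**Figure D1:**
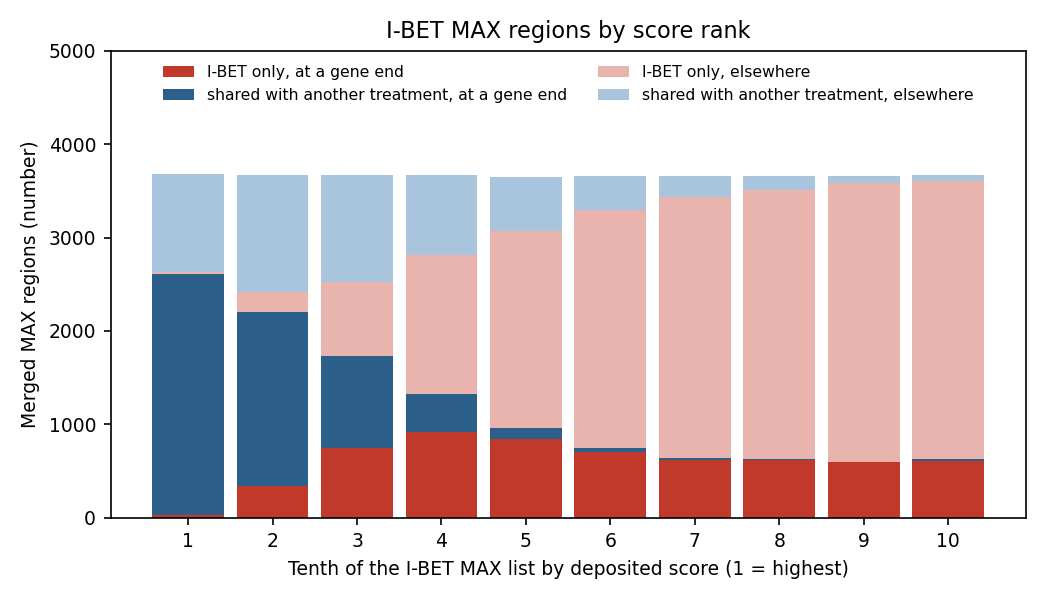
Number of merged MAX regions in 10 equal bins of the I-BET MAX list, ordered by the deposited score (x axis, bin 1 holds the highest scores), split by colour into I-BET-only and shared regions at gene ends and elsewhere. I-BET-only regions at gene ends numbered 33 in bin 1, 923 in bin 4 and 605 in bin 10.

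The widest I-BET-only region at a gene end covered 4091 bp at Jun, an AP-1 subunit, at rank 15056. The next were at Coro1a (an actin-binding protein of leukocytes, 2991 bp), Pianp and Cops7a (2872 bp), Tsen34 and Mboat7 (2851 bp) and Usf2 with Lsr (2845 bp). USF2 is itself an E-box-binding protein. The length of the I-BET list moves with the number of regions. With only as many top-scored I-BET peaks as the RANKL list holds, 1082 regions at 1255 genes remained in the selection, at a median width of 803 bp.

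I-BET-only regions were listed at 5611 of 21887 protein-coding genes (25.6%). Of these genes, 4055 (18.5% of all genes) had no MAX region of another treatment at either end, and the other 1556 had one as well. A MAX region of another treatment was listed at 31.8% of genes. With equal numbers of peaks, 1077 genes had an I-BET-only region and no other, and 1070 of them were among the 4055. That overlap is nearly fixed in advance, because the shorter list is a part of the same I-BET list. For the 1475 regions whose genes all had MAX in another treatment, the nearest such peak was a median of 627 bp away and the median width was 409 bp. For the remaining 4548 regions these medians were 29118 bp and 602 bp. The distances follow from how the genes were divided and are a description. Overall 1008 regions (16.7%) had a MAX peak of another treatment within 1 kb.

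The nearest were at Efna1 (8 bp), the inflammasome sensor gene Nlrp3 (10 bp), Ssb (16 bp), Emp1 (18 bp) and Snrnp35 (34 bp), where I-BET peaks lay beside peaks of other treatments. Among the farthest were those at Tab3, an adaptor of the kinase TAK1, 8057665 bp from any other MAX peak, at Gk with 5430427O19Rik (7854285 bp), at the lipopolysaccharide receptor gene Tlr4 (3268354 bp) and at Wdr44 (2760412 bp). Apart from the Tlr4 region on chromosome 4, these lay on the X chromosome. Most genes had a single I-BET-only region (4541 genes). Rab26 and Lyz2, the gene of lysozyme in macrophages, had 5 each, and Atp6v0c, Cracr2b and Kat5 had 4 each. The 5 regions of Lyz2 ranked from 20478 to 35307, and Lyz2 also carried MAX in other treatments. At the 1 kb limit, the last regions inside were 1000 bp from Cox6a1, Ccdc106 and Niban3, and the first outside were 1001 bp from Gtf2a1 and Dpp9 and 1002 bp from Clpx.

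Gene starts, not 3′ ends, held most of the regions. The strand was known for all genes at 4664 regions. Of these, 3972 (85.2%, exact 95% interval 84.1 to 86.2%, counting error only) were within 1 kb of a start and 692 (14.8%) were at a 3′ end only. Among gene-end MAX regions shared with another treatment 95.9% were at a start, and among those of all 4 treatments 97.2%. With as many top-scored I-BET peaks as the RANKL list holds, the share at starts was 96.1%. Regions at starts had a median rank of 17617 and a median width of 594.5 bp, and those at 3′ ends only 25089.5 and 387.5 bp. The highest-ranked at a 3′ end were those of Wwc1 (rank 3351), Rela (the NF-kB subunit p65, 4093), Muc1 (4115) and Notch4 (4542), genes named after their values were seen.

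Around the start, the regions had their midpoint a median of 64 bp downstream, with quartiles at 107 bp upstream and 254 bp downstream. Shared regions had theirs 62 bp downstream. Midpoints lay within 250 bp of the start in 56.1% of the I-BET-only regions at starts and in 74.0% of the shared ones. Starts of 2 genes on opposite strands lay within 1 kb of 321 I-BET-only regions (6.88%) and of 672 shared ones (13.8%). The highest-ranked pairs were Elmod3 with Retsat, Zfp944 with Zfp758, Kctd21 with Usp35 (rank 3448) and Lzic with Nmnat1 (rank 3654), the latter 2 pairs chosen after their values were seen.

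**Figure D2:**
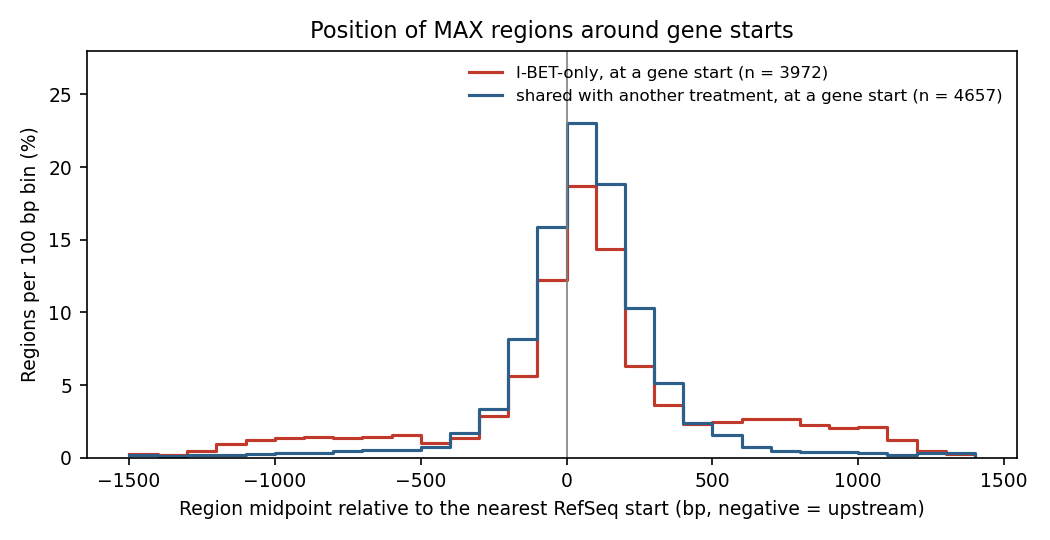
Distance of region midpoints from the nearest annotated start (x axis, bp) as percent of regions per 100 bp bin (y axis), for I-BET-only regions at a start (red, n = 3972) and MAX regions shared with another treatment at a start (blue, n = 4657). Both peak just downstream of the start, and between 500 and 1200 bp on either side the red line runs above the blue one.

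The MAX E-box was found in a smaller share of promoters under I-BET-only regions than under regions of all 4 treatments. Promoter sequences (250 bases before to 50 after each start) were available for 4475 of the 5611 genes, and 3158 of these promoters, from 2830 genes, overlapped an I-BET-only region and no other MAX region. On either strand, CACGTG occurred in 175 of them (5.54%, exact 95% interval 4.77 to 6.397%). It occurred in 664 of 3296 promoters under MAX regions of all 4 treatments (20.1%, 18.8 to 21.6%), in 523 of 11091 promoters without a MAX region (4.72%, 4.33 to 5.13%) and in 7.84% of all 21263 promoters. Promoters under the remaining MAX regions, which were not of all 4 treatments, were closer, with CACGTG in 304 of 3718 (8.18%, 7.32 to 9.10%). This remaining group includes any promoters under I-BET-only regions farther than 1 kb from a gene end, so it is not purely a group of shared regions. The variant CACGCG was found in 12.4% of promoters under I-BET-only regions, in 29.3% under regions of all 4 treatments, in 17.6% under the remaining MAX regions, in 5.12% without MAX and in 12.1% of all. These are matches of letters, not measured binding sites.

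Of the other motifs, only the GC box had, like CACGTG, its highest share under regions of all 4 treatments and its lowest without MAX. Promoters under I-BET-only regions lay below the share of all promoters for CACGTG and above it for the GC box. CATGTG was found in 7.19% of promoters under I-BET-only regions, 8.01% under regions of all 4 treatments, 15.2% without MAX and 11.5% of all promoters. The general E-box CANNTG, which includes the 2 E-boxes CACGTG and CATGTG, was found in 62.5%, 61.3%, 76.2% and 69.0% of these groups in the same order. The AP-1 motif TGANTCA was found in 5.16%, 3.16%, 9.49% and 6.99%. The core GAGGAA, read by ETS factors such as PU.1, was found in 26.9%, 24.4%, 28.9% and 27.4%. The GC box GGGCGG, read by SP factors, was found in 66.2%, 72.5%, 25.4% and 46.2%. Promoters under I-BET-only regions held a median of 6.33 CpG per 100 bases, against 8.67 under regions of all 4 treatments, 7.33 under the remaining MAX regions, 1.33 without MAX and 4.33 in all.

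CpG content and peak rank differed between these groups, so the E-box shares were also read within strata. In the 6 bins of CpG content, CACGTG was found in 4.56 to 6.50% of promoters under I-BET-only regions, and in 9.80 to 21.8% under regions of all 4 treatments. In promoters without MAX it was 2.39% in the lowest bin, 12.1% in the bin of 8 to 10 CpG per 100 bases and 9.39% in the highest bin. In the lowest bin the share under I-BET-only regions was the higher one, at 13 of 227 promoters (5.73%, 3.08 to 9.59%). The interval of promoters without MAX (2.03 to 2.79%) lay below it there. In the bin of 8 to 10, promoters under I-BET-only regions held CACGTG in 24 of 526 cases (4.56%, 2.94 to 6.71%), and the interval of promoters without MAX (9.18 to 15.7%) lay above. Among I-BET peaks ranked between 5000 and 10000, the share was 5.78% (4.18 to 7.76%) under I-BET-only regions and 12.8% (9.94 to 16.02%) under regions of all 4 treatments. Lower ranks held few promoters under regions of all 4 treatments. Between 10000 and 15000 there were 51, with 11.8% (4.44 to 23.9%), and the interval under I-BET-only regions (5.41%, 4.06 to 7.06%) overlapped it. The CACGTG sites of these promoters were also measured from the midpoint of the overlapping region. The sites were counted per promoter, need not lie inside the region, and count again where 2 promoters share a site. Under I-BET-only regions 92 of 186 sites lay within 100 bp of the midpoint (49.5%, 42.1 to 56.9%, sites taken as independent). Under the wider regions of all 4 treatments this held for 236 of 786 sites (30.0%, 26.8 to 33.4%).

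**Figure D3:**
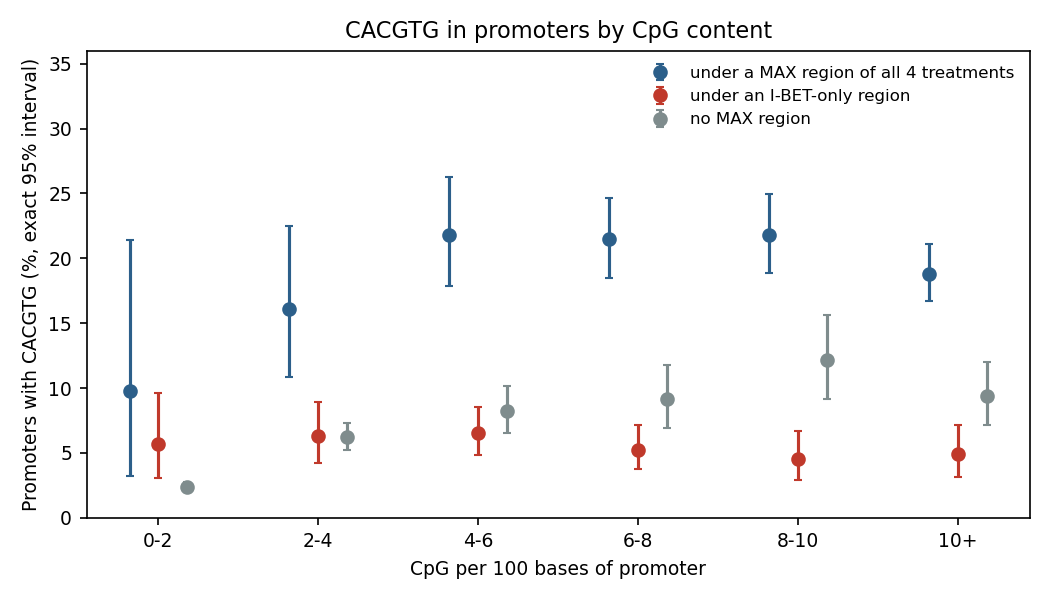
Percent of promoters that hold CACGTG (y axis, exact 95% intervals that cover counting error only) by CpG per 100 bases (x axis), for promoters under MAX regions of all 4 treatments (blue), under I-BET-only regions (red) and with no MAX region (grey). The red points stay between 4.56 and 6.50%, below the blue points in every bin, with overlapping intervals in the lowest bin. From 4 CpG per 100 bases upwards they are also below the grey points, with overlapping intervals in the bins of 4 to 6 and 6 to 8. In the lowest bin the red point is above the grey one, and their intervals do not overlap.

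MYC peaks were nearly absent from the I-BET-only regions. Only 3 of 6023 overlapped a MYC peak of any treatment (0.0498%, exact 95% interval 0.0103 to 0.145%). Among gene-end MAX regions shared with another treatment 295 of 6059 did (4.87%), and among those of all 4 treatments 286 of 2951 (9.69%). I-BET-only regions away from gene ends were also nearly free of MYC peaks, with 19 of 18804 (0.101%, 0.0608 to 0.158%). The near absence of MYC was therefore not particular to gene ends. The MYC lists were short, at 312 peaks untreated, 299 with RANKL, 136 with I-BET and 11 with both. The 3 regions were at Dync1i2 (a dynein intermediate chain, chr2:71211569-71212325), at Uqcr10 with Zmat5 (chr11:4704042-4705056; UQCR10 is a complex III subunit) and at the 3′ end of Lars2, the mitochondrial leucyl-tRNA synthetase gene (chr9:123461803-123462184). All 3 overlapped a MYC peak of untreated cells, of rank 165, 118 and 61 of 312. Only the Lars2 region also overlapped a MYC peak of the I-BET list, of rank 124 of 136. None overlapped a MYC peak with RANKL or with both agents, where a count of 0, taken as a limit of 3 counts of the total, allows a share of up to 0.0498%.

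Genes of innate immunity often had an I-BET-only MAX region when all I-BET peaks were counted, and many of them had no other MAX region. Each gene list below is read beside the share over all genes, 25.6% with an I-BET-only region and 18.5% with this as the only MAX region. The region ranked for a listed gene can lie at either end of the gene. Those given for Kat5, Mycn and Atp6v0c lay within 1 kb of the 3′ end, not the start. For some genes, such as Csf1r, the strand and so the kind of end was unknown. All genes include silent ones such as most olfactory receptor genes, and expression was not measured here. Among 48 genes of interferon response and antigen presentation, 26 (54.2%) had an I-BET-only region and 19 (39.6%) had no other. The highest-ranked were Tap2, a subunit of the peptide transporter of class I presentation (rank 7312), Ifitm3 (an antiviral membrane protein, 9783, with MAX in other treatments as well), B2m (the class I light chain, 10805), Oasl1 (12659) and the region shared by Tap1 and the immunoproteasome gene Psmb9 (13026). Tap1 had MAX in another treatment as well, and Psmb9 did not. Isg15, Ifit1 and Ifit3 had no MAX region at either end in any list. Among 35 pattern recognition receptors and adaptors, 20 had an I-BET-only region and 14 no other. They were led by Ripk2 (the kinase of NOD signalling, 6109), Mavs (9388), Myd88 (the adaptor of most Toll-like receptors, 10291), Tlr5 (11432), Tlr4 (12203) and Nod2 (17311), of which Myd88 also had MAX in another treatment. These list counts depend on the length of the I-BET list. With equal numbers of peaks, 5.73% of all genes had an I-BET-only region, and so did 3 of 48 interferon genes (6.25%), 3 of 41 macrophage genes (7.32%) and 3 of 35 pattern recognition genes (8.57%), all near that background. The shares above 10% were 6 of 38 in the BET and elongation list (15.8%), 6 of 39 in the osteoclast list (15.4%), 6 of 40 in the cell cycle list, 5 of 41 in the RANK and M-CSF signalling list (12.2%), 4 of 37 in the histone list (10.8%) and 4 of 38 in the list of myeloid transcription regulators (10.5%).

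Among 41 NF-kB and inflammatory genes, 21 had an I-BET-only region but 9 of these had no other, and 26 genes of the list carried MAX in another treatment. The highest-ranked was the region at the 3′ end of Rela (4093), followed by Ptgs2 (cyclooxygenase 2, 4553), the kinase gene Ikbkb (8977), Bcl3 (11164), the chemokine gene Cxcl2 (11215) and Tnip1 (11840). At Rela, MAX of other treatments was listed as well, and at the other 5 genes it was not. The cytokine genes Il1b and Il6, named after their values were seen, had I-BET-only regions of low rank, 21570 and 26549.

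Macrophage and osteoclast genes gave similar counts. Of 41 macrophage surface and identity genes 21 had an I-BET-only region and 14 no other, with the activation marker Cd83 at rank 7379, Tyrobp (the signalling adaptor DAP12) at 9125, the M-CSF receptor gene Csf1r at 10167, Cd80 at 12872, the integrin gene Itgax at 14750 and Cd40 at 14957. Tyrobp and Csf1r carried MAX in other treatments too. Of 39 osteoclast genes 19 had an I-BET-only region and 15 no other. They were led by Clcn7 (the lysosomal chloride transporter of the resorbing membrane, 4894), Tfeb (a regulator of lysosomal genes, 6381), Tyrobp, Tnfrsf11a (RANK itself, 9468), Snx10 (10789) and Fos (10865). The master regulator gene Nfatc1, named after its value was seen, had a 1235 bp region of rank 11950 and no other. The resorption genes Acp5, Mmp9 and Mmp14, also named afterwards, had no MAX region. Of 38 myeloid transcription regulators 17 had an I-BET-only region and 11 no other, led by Klf2 (6721), Cebpe (6926) and the immediate early genes Egr1 (8539) and Nr4a1 (9149).

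The signalling and elongation lists had few genes without MAX. Of 41 genes of RANK and M-CSF signalling, 31 carried MAX in another treatment, 9 of the remaining 10 had an I-BET-only region, and Camk4 had none. Among the highest-ranked were the kinase gene Syk (7676), Tnfrsf11a, Csf1r, Pik3r1 (10446) and Akt2 (11001). Of 38 genes of BET proteins and elongation factors, 18 had an I-BET-only region and 10 no other, and Brd3 had no MAX region. Ctr9 (a PAF1 complex subunit, 4006), Supt16 (4523), Nelfcd (a subunit of the pausing factor NELF, 5671), Ccnt1 (cyclin T1 of P-TEFb, 6504), Mllt3 (8155) and Cdk9 (the kinase of P-TEFb, 10838) led this list, and none of these 6 had MAX in another treatment. Of 44 chromatin genes 16 had an I-BET-only region and 9 no other, with the acetyltransferase genes Crebbp (4199), Kat5 (7427), Kat8 (10194) and Ep300 (11221) and the deacetylase gene Hdac1 (8499) at the head.

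**Figure D4:**
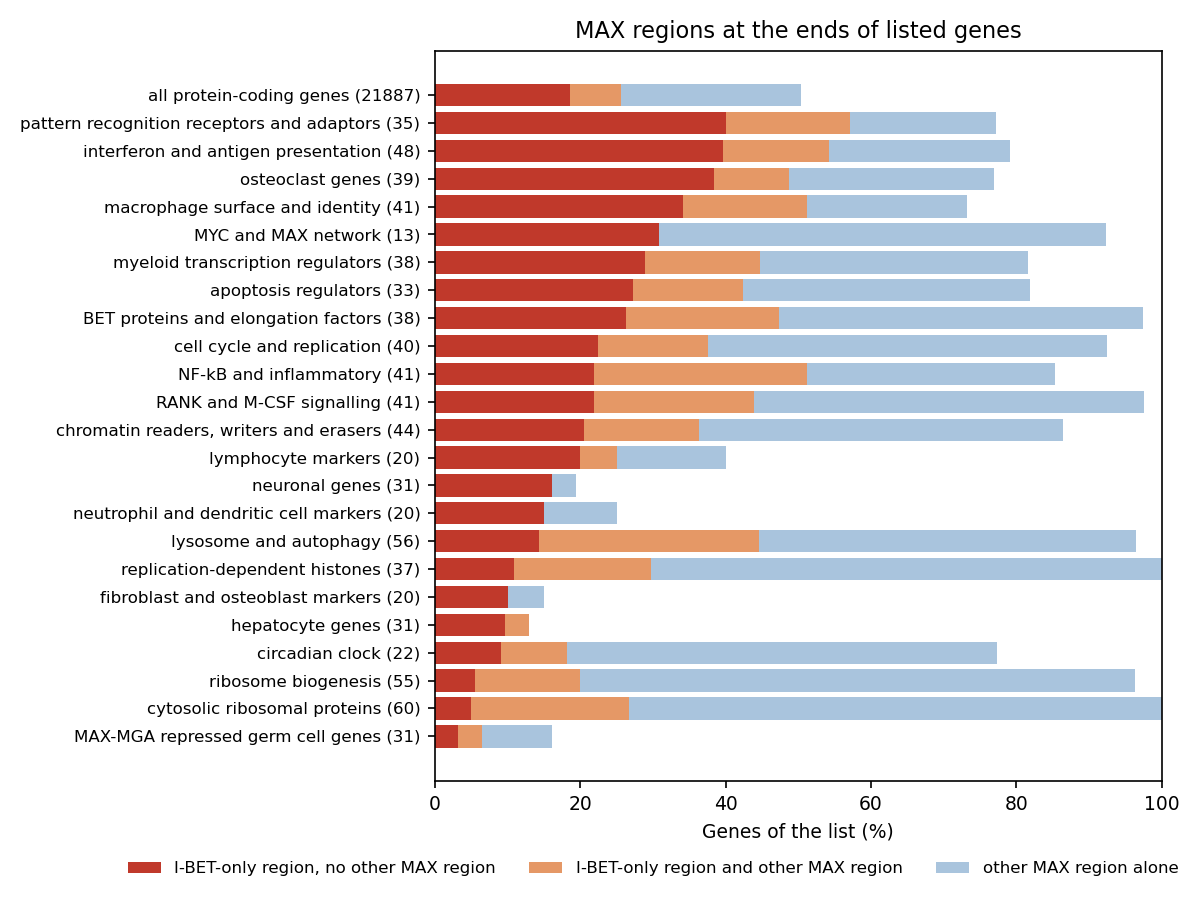
Percent of the genes of each list (x axis; number of genes in brackets) with an I-BET-only MAX region and no other MAX region (red), with both (orange) and with MAX regions of other treatments alone (light blue); the rest of each bar up to 100% had none. The red share is 40.0% in pattern recognition genes and 5% in ribosomal protein genes, beside 18.5% in all genes.

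In the MYC and MAX network itself, 4 of 13 genes had an I-BET-only region, and none of them had MAX in another treatment. These were Mlx, the MAX-like partner of the glucose-sensing factors (10129), and the 3 MYC family genes Mycn (15312), Mycl (21823) and Myc (24327). Myc had 3 such regions, the highest-ranked 799 bp wide over a gene end. Max, Mxi1 and Mxd1 were among the 8 genes with MAX in another treatment and no I-BET-only region.

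Biosynthetic genes, known MYC targets, nearly all had MAX in another treatment. Of 55 ribosome biogenesis genes 50 carried MAX in another treatment, 11 had an I-BET-only region and 3 no other, namely Polr1c (an RNA polymerase I and III subunit, 5266), Utp14a (16255) and Gnl3l (18843). Of 60 cytosolic ribosomal protein genes 57 carried MAX in another treatment, 16 had an I-BET-only region and 3 no other, Rpl18 (9391), Rpl19 (15142) and Rps2 (23962). For ribosomal protein genes (26.7%) and histone genes (29.7%) the share with an I-BET-only region was near that of all genes. Of 37 replication-dependent histone genes, whose near-identical copies make read placement uncertain, 11 had an I-BET-only region and 4 no other. Of 56 lysosome and autophagy genes 25 had an I-BET-only region and 8 no other, led by Atp6v0c (5631) and Atg7 (6000). Of 40 cell cycle genes 15 had an I-BET-only region and 9 no other, led by E2f4 (4099) and Ccnd3 (6096), and of 33 apoptosis regulators 14 had an I-BET-only region and 9 no other, led by Bad (6271) and Pmaip1 (7600). Of 22 circadian clock genes 4 had an I-BET-only region and 2 no other, with Nfil3 (10117) the highest-ranked.

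Lists of genes from other lineages gave counts below or near the share of all genes. I-BET-only regions were listed at 5 of 31 neuronal genes, 4 of 31 hepatocyte genes, 2 of 20 fibroblast and osteoblast markers, 3 of 20 neutrophil and dendritic cell markers, 5 of 20 lymphocyte markers (close to the share of all genes) and 2 of 31 germ cell genes repressed by MAX and MGA. With equal numbers of peaks, each of these 6 lists had 0. Among 14926 genes without MAX in another treatment, 27.2% (26.5 to 27.9%) had an I-BET-only region. In the same terms the share was 19 of 29 in the interferon list, 14 of 22 in the pattern recognition list and 15 of 24 in the osteoclast list, and 5 of 30 in the neuronal and 3 of 30 in the hepatocyte list. It was also high in lists of other function. Examples were 9 of 10 in RANK and M-CSF signalling, 10 of 11 in BET and elongation, 8 of 10 in lysosome and autophagy and 9 of 12 in cell cycle. In the circadian list it was 2 of 7. A high share was thus not particular to immune or osteoclast genes. Peaks at marker genes are no measure of their expression. Of 8 macrophage markers used to check the labelled cell type, 7 had MAX at an end in some list, with Adgre1 the exception, against 1 of 3 lymphocyte markers, 1 of 3 fibroblast markers and 2 of 6 markers of neutrophils and dendritic cells. Of all protein-coding genes, 49.7% had no MAX region in any list. In the lists other than I-BET, 4 of the 8 macrophage markers had MAX, and so did 1 of 3 lymphocyte, 0 of 3 fibroblast and 1 of 6 neutrophil and dendritic cell markers. With so few markers, these counts do not establish the cell type.

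On the X chromosome the I-BET-only regions made up a larger share of MAX regions than on any autosome. Of 284 I-BET regions at gene ends on the X, 218 were I-BET-only (76.8%, exact 95% interval 71.4 to 81.5%), against 49.2% on all autosomes and 43.7 to 55.7% on each. MAX of another treatment was listed at 77 of 966 X-linked genes (7.97%), against 25.02 to 40.0% of genes on each autosome. An I-BET-only region with no other was listed at 19.7% of X-linked genes, within the autosomal range of 14.6 to 22.4%. More X-linked genes lacked other MAX and could fall in this class, so these shares have unlike bases. With or without other MAX, an I-BET-only region was listed at 21.3% of X-linked and 26.2% of autosomal genes. The X chromosome held 0.837% of MAX peaks in untreated cells, 0.863% with RANKL, 0.650% with both agents and 1.48% with I-BET (1.36 to 1.61%). Among as many top-scored I-BET peaks as in the RANKL list it held 1.07% (0.881 to 1.28%), and 25 of its 76 gene-end regions were I-BET-only (32.9%, 22.5 to 44.6%), against 16.5% on autosomes. Tab3, Tfe3 (a relative of TFEB, rank 12826), Utp14a, Gnl3l and Ikbkg (the NF-kB regulator NEMO, rank 18416) were X-linked genes with an I-BET-only region alone. Tfe3 and Ikbkg were named after their values were seen.

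**Figure D5:**
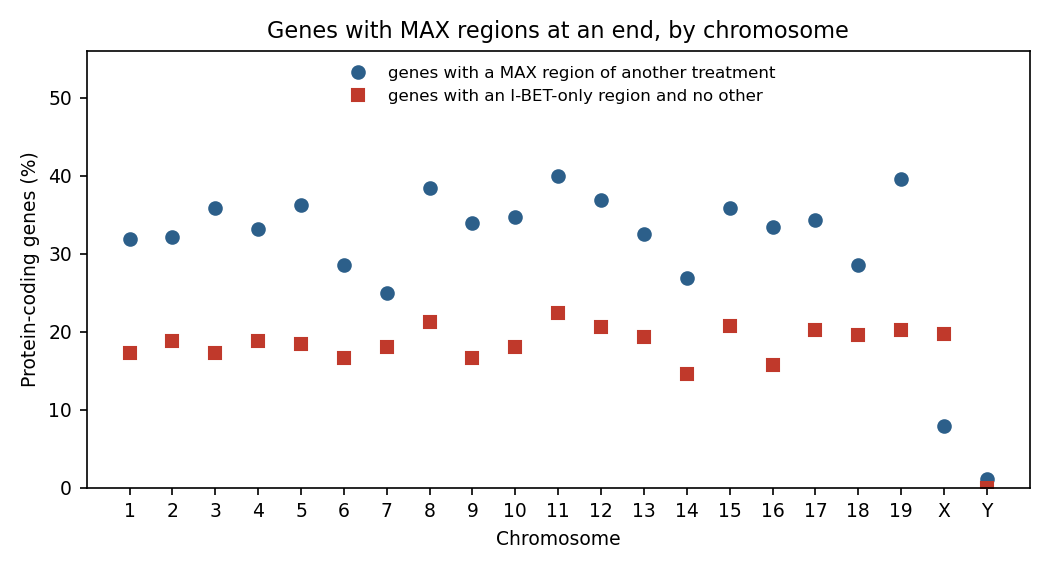
Percent of protein-coding genes (y axis) on each chromosome (x axis) with a MAX region of another treatment at an end (blue circles) and with an I-BET-only region and no other (red squares). On the X chromosome the blue point falls to 7.97%, and the red point, at 19.7%, stays in the autosomal range.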

How the data were processed

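MYC and MAX chromatin immunoprecipitation libraries of 4 treatments were analysed as the 8 peak lists the authors deposited; the input libraries were not analysed here. Each list gives peak positions and, in the deposited files, a score per peak whose scale is not given in the sources used here. Most rows join peaks of 3 call sets whose nature is not stated. The submitters' processing notes name MACS2 2.1.1.20160309, Bowtie2 2.3.4.1 and FastQC, with the builds mm10 and GRCm38. Thresholds, duplicate handling, read depth and use of the inputs: not given in the sources used here.

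MAX peaks were merged where they overlapped or touched, and regions no farther than 1 kb from a coding gene's start or 3′ end in RefSeq's GRCm38.p6 table were kept as described in the report. Overlap meant at least 1 bp. Strand came from the promoter table, which gave it for 17492 of 21887 genes, and 834 of 835 list entries matched a gene. Python 3.11.15, pandas 2.3.3 and scipy 1.17.1 were used, and the code recovered 41 of 41 planted regions in simulated data with 0 differences from bedtools 2.31.1. Intervals on shares are Clopper-Pearson at 95%; they reflect counting error alone and take regions as independent. The named genes are those at the 20 highest-ranked regions, up to 6 per list with a region and 3 without, the 5 widest, those overlapping MYC, those at the window's limit, those with the most regions and those nearest to or farthest from other MAX peaks. A few genes that fall under these rules are not reported here. The members, the gene lists and these rules were chosen with earlier results of these data known. Alternatives changed the window, merging, score minimum, number of I-BET peaks, peak width, lists required to lack a peak, gene biotypes, and the overlap with MYC peaks and promoters.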

Additional observations from a re-analysis of the deposited data

How the results depend on the processing

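Of 82 alternative values for the 9 summary results, 48 stayed within the spread or within 1.5 times the reported count and 34 moved. With as many I-BET peaks as the RANKL list holds, there were 1082 regions at 1255 genes, 1077 of them without other MAX, with median width 803 bp, median rank 8296.5, 7.58% within 1 kb of another treatment's MAX peak, 0.185% overlapping MYC, 96.1% at a start (beside 95.9% of the shared gene-end regions of the full lists) and 6.51% of promoters with CACGTG; all 23 gene list counts fell by over 1.5 times. At the median score 18 of the 23 moved by as much, with a 0.5 kb window 6 (pattern recognition from 20 to 13 genes), with 2.5 kb 6, with 500 bp merging 6, and with no other MAX peak within 1 kb 7 (histones from 11 to 3). With I-BET peaks at or above their median score, these were 2892 regions at 3169 genes, 2583 without other MAX, 742.5 bp, rank 12206, 10.6% and 92.2% at a start. With a 0.5 kb window, the width was 616.5 bp, the rank 16755, the share near another peak 9.86% and that at a start 87.4%; with 2.5 kb, 479 bp, 21228 and 82.1% at a start. Merging peaks within 500 bp gave 663 bp, 16723, 3.02% and 83.2%. Genes of any biotype gave 504 bp, 20349, 15.4% and 82.3%. Keeping only regions with no other MAX peak within 1 kb, an alternative chosen after seeing the data, gave 579 bp, 17960 and 84.0% at a start. The alternatives with fewer I-BET peaks kept the top-scored ones, so number of peaks and score cannot be told apart in them. The cause of the other changes was not tested. No MAX peak was under 100 bp, so that alternative could change nothing. Its values for the 9 summary results are among the 48 that stayed and carry no information on stability. No paired analysis was possible because each antibody and treatment has 1 list. Depth is unknown, so a missing peak sets no limit on binding.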

Other observations

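Gene families, grouped by symbol after the values were seen, differed in how often they carried an I-BET-only MAX region. Of 397 genes with a Zfp symbol, zinc-finger genes that include many KRAB repressors, 174 had such a region (43.8%) and 158 had no other (39.8%), beside 18.5% of all genes, while MAX of another treatment was listed at 29.2%. Of 38 kinesin genes (Kif) 15 had an I-BET-only region and no other, of 36 F-box genes (Fbxo) 14 and of 69 Rab genes 23. The Ddx helicase genes showed the opposite split, with MAX of another treatment at 28 of 37 and an I-BET-only region without other MAX at 2. Olfactory receptor genes (Olfr) had an I-BET-only region at 4 of 1110 and vomeronasal receptor genes (Vmn) at 1 of 355. None was listed at 53 keratin genes (Krt), where a count of 0, taken as a limit of 3 counts of the total, allows up to 5.66%, or at 42 beta-defensin genes (Defb), where it allows up to 7.14%. Members of a family can lie side by side and share a region, and no family was tested.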
